A study of Cricetiscus sungorus with 12 samples.

Results

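Genes of the thyrotropin axis and the pituitary, 10 in all, were read in the hypothalamus of Djungarian hamsters and chosen by their mouse GeneIDs. They were the thyrotropin subunit genes Tshb (GeneID '22094') and Cga ('12640'), the receptor gene Tshr ('22095'), the coactivator gene Eya3 ('14050'), the pituitary transcription factor genes Pitx1 ('18740') and Pou1f1 ('18736'), and the pars distalis hormone genes Lhb ('16866'), Fshb, Prl ('19109') and Gh ('14599'). A record was found for 9 of these 10 genes among the 17191 GeneIDs, and Fshb was not analysed here. The question was whether Tshb and Cga changed by themselves, or together with genes of the pars distalis that could have come with the tissue block.

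The data were mRNA-Seq libraries of the hypothalamus of 12 adult hamsters, all taken about 4 h after lights on. LP-NT hamsters (n = 4, 2 males and 2 females) stayed under summer-like long photoperiod with 16 h of light and 8 h of darkness at normal body temperature. SP-NT hamsters (n = 4, 2 males and 2 females) had been moved to winter-like short photoperiod with 8 h of light and 16 h of darkness and were also normothermic. SP-HT hamsters (n = 4, 3 males and 1 female) had the same short photoperiod and were hypothermic in spontaneous daily torpor, a regulated fall of metabolism and body temperature lasting some hours. The LP-NT hamsters carried no implanted temperature transmitter and both SP groups did, so photoperiod and implantation cannot be told apart. The samples were whole hypothalamic blocks, and how much of the pituitary stalk and pars tuberalis stayed on each block was not given in the sources used here. Libraries held 20204979 to 24186918 expected counts assigned to GeneIDs, and no pair of replicates agreed within sampling noise (chi-square per degree of freedom 7.01 to 39.2 over 18 pairs). SP-NT replicate 19 was labelled male but had 0 counts of 2 GeneIDs that gave 342 to 1699 counts in the other 6 males, so the calls of Cga, Tshb and Eya3 that use it are also given without it.

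Thyrotropin, or TSH, is built from a beta subunit (Tshb) that gives the hormone its identity and an alpha subunit (Cga) that is shared with luteinizing and follicle-stimulating hormone. The pars tuberalis is the thin sleeve of pituitary tissue around the stalk, below the median eminence. Its thyrotrophs carry melatonin receptors and respond to the length of the night, and the TSH they release under long days acts on Tshr of the tanycytes in the floor of the third ventricle, which then raise the local supply of active thyroid hormone. Thyrotrophs of the pars distalis instead serve the thyroid gland and lie among the cells that make prolactin (Prl), growth hormone (Gh) and the gonadotropins.

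Cga and Tshb were higher in every LP-NT hamster than in any hamster of the SP groups. Cga gave 1005, 482, 356 and 585 counts in LP-NT replicates 01, 02, 03 and 05. It gave 26, 22, 17 and 45 counts in SP-NT replicates 19, 36, 37 and 38. In SP-HT replicates 02, 10, 26 and 33 it gave 44, 14, 18 and 7 counts. The lowest LP-NT hamster was thus far above the highest hamster of either SP group, whereas the SP groups overlapped. As CPM (counts scaled to the library total, with the trimmed mean of M-values, TMM), Cga stood at 27.2 ± 12.6 CPM in LP-NT, 1.14 ± 0.478 CPM in SP-NT and 0.949 ± 0.687 CPM in SP-HT (SD, n = 4 each), so the SP-NT mean was 4.18% and the SP-HT mean 3.49% of the LP-NT mean.

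Tshb gave 113, 97, 36 and 82 counts in LP-NT replicates 01, 02, 03 and 05. It gave 9, 4, 4 and 7 counts in SP-NT replicates 19, 36, 37 and 38. In SP-HT replicates 02, 10, 26 and 33 it gave 8, 2, 0 and 0 counts. All 4 LP-NT hamsters were again above all 8 SP hamsters, and the SP groups overlapped. The levels were 3.66 ± 1.45 CPM in LP-NT, 0.248 ± 0.0965 CPM in SP-NT and 0.112 ± 0.166 CPM in SP-HT (SD, n = 4 each), that is 6.78% and 3.05% of the LP-NT mean. Summed over its 4 libraries, Tshb had 328 counts in LP-NT (95% exact Poisson interval 293 to 365), 24 in SP-NT (15.4 to 35.7) and 10 in SP-HT (4.80 to 18.4). These intervals cover counting error only. A count of 0 allows up to 3 counts, which is 0.122 to 0.147 CPM in these libraries, so the SP levels of Tshb were close to what the depth can resolve. In bulk tissue, fewer cells of a type and less RNA per cell cannot be told apart.

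**Figure D1:**
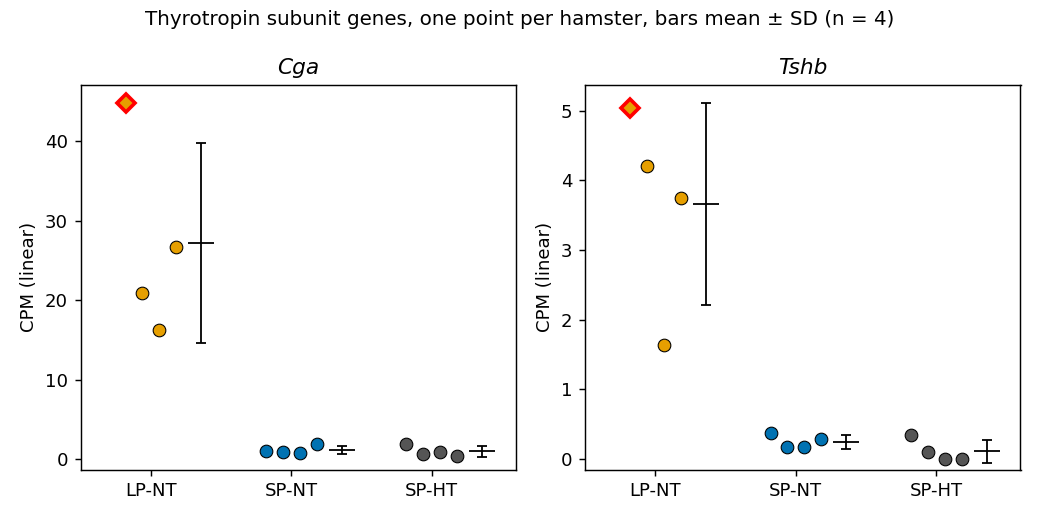
CPM of Cga and Tshb (vertical axes, linear, separate scales) in each hamster of LP-NT, SP-NT and SP-HT, with the mean and SD of each group (n = 4) as a bar to the right of its points; the red-edged diamond is LP-NT replicate 01. All LP-NT points, from 16.2 CPM for Cga and 1.64 CPM for Tshb upwards, lie above all points of both SP groups.

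In the photoperiodic comparison (SP-NT against LP-NT), 2 of the 9 genes tested passed the threshold, both lower, against 0.0309% of all 16199 genes tested that were called lower (adjusted p under 0.05, edgeR quasi-likelihood test with Benjamini-Hochberg adjustment over all genes). Cga fell by 4.58 on the log2 scale (log2(FC) = -4.58, SE 0.380, 95% interval -5.42 to -3.74, adjusted p = 0.00111, edgeR). Tshb fell by 3.86 (log2(FC) = -3.86, SE 0.409, 95% interval -4.77 to -2.95, adjusted p = 0.00576, edgeR). The same 2 genes were those whose LP-NT and SP-NT values did not overlap, where 1.6% of all genes were lower without overlap. The median log2(FC) of the 9 genes was -0.33, beside -0.0024 over all genes tested, and 2 of the 9, Prl and Gh, passed the count filter only through their counts in 1 LP-NT library. The Tshb call was lost when SP-NT replicate 36 was left out (edgeR, log2(FC) = -3.71, adjusted p = 0.0516) and in limma (log2(FC) = -3.59, adjusted p = 0.0751), while Cga passed in each of the 8 fits that left out 1 hamster (log2(FC) -4.90 to -4.22, largest adjusted p = 0.0151, edgeR). Without SP-NT replicate 19, Tshb remained called (edgeR, log2(FC) = -4.11, adjusted p = 0.0246). With sex as a covariate and SP-NT replicate 19 omitted, a setting chosen after seeing the data, Cga remained called (log2(FC) = -4.50, adjusted p = 0.0144, edgeR) and Tshb did not (log2(FC) = -4.12, adjusted p = 0.0657, edgeR).

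The torpid SP-HT hamsters gave another set of short photoperiod animals, set against the same LP-NT hamsters. Of the 9 genes, 3 were lower past the threshold, where 1.02% of the 16157 genes tested were called lower, and these 3 also did not overlap, where 6.54% of genes were lower without overlap. Cga fell by 4.81 on the log2 scale (SE 0.444, 95% interval -5.78 to -3.83, adjusted p = 0.00124, edgeR) and Tshb had a log2(FC) of -4.91 (SE 0.647, 95% interval -6.33 to -3.48, adjusted p = 0.00919, edgeR). Both passed in each of the 8 fits that left out 1 hamster. The third gene was Eya3. The median log2(FC) of the 9 genes was -0.45, beside -0.00086 over all genes. It includes Prl and Gh, which passed the count filter here too only through their counts in LP-NT replicate 01. As the LP-NT libraries are shared, these values stand beside those of SP-NT and do not repeat them independently.

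Between the libraries labelled SP-HT and SP-NT the thyrotropin subunit genes did not pass the test. Cga had a log2(FC) of -0.25 (SE 0.460, 95% interval -1.26 to 0.77, adjusted p = 0.823, edgeR), and Tshb had -1.06 (SE 0.799, 95% interval -2.82 to 0.70, adjusted p = 0.520, edgeR). At 24 and 10 counts over 4 libraries each, the interval of Tshb leaves room for a fall of more than 2 log2 units as well as for a small rise. Leaving out 1 hamster at a time gave a log2(FC) of Tshb from -2.76, without SP-HT replicate 02, to -0.67, and of Cga from -0.86 to 0.08, none of them called. Prl and Gh had too few counts here to be tested (0 and 3 counts over 8 libraries), so 7 of the 9 genes were tested. Of these, 1 (Eya3) was called lower, where 1.9% of the 16195 genes tested were called lower, and Eya3 was also the 1 gene whose groups did not overlap, where 7.47% of genes were lower without overlap. The median log2(FC) of the 7 genes was -0.25, beside -0.0027 over all genes.

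The proportion of Cga to Tshb within a hamster overlapped between the groups. Per length, in CPM per 1000 bases of effective length, Cga was 3.50 to 6.80 times Tshb in the LP-NT hamsters and 2.13 to 4.70 times in the SP-NT hamsters. In the 2 SP-HT hamsters with any Tshb count it was 4.01 and 6.21 times. In summed counts, there were 7.40 Cga counts per Tshb count in LP-NT (95% exact interval from counting error 6.59 to 8.33), 4.58 in SP-NT (2.93 to 7.46) and 8.30 in SP-HT (4.29 to 17.9). Over the 12 hamsters the log2 levels of both genes had a Pearson r of 0.97, which is a description: the points share the 3 groups, and r within a group was not computed.

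**Figure D2:**
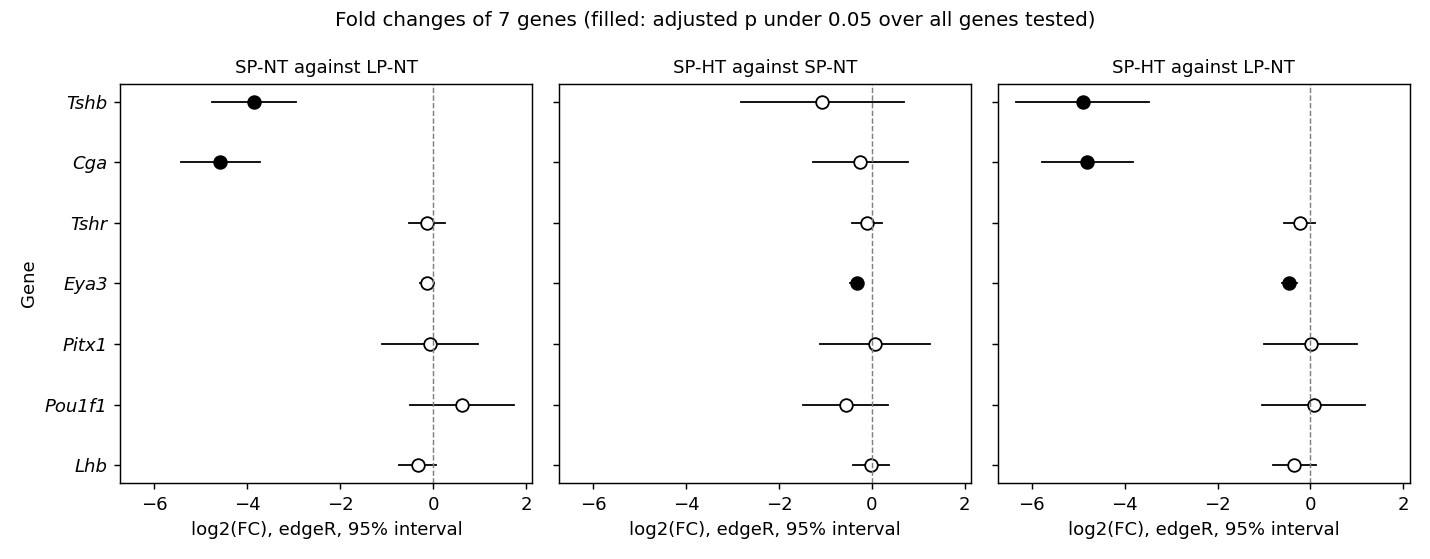
Log2 fold change (horizontal axis) with its 95% interval from edgeR for 7 genes, with a panel each for photoperiod (SP-NT and LP-NT), torpor (SP-HT and SP-NT) and the torpid group set against LP-NT; filled points passed an adjusted p of 0.05 over all genes tested, and Prl and Gh are left out because nearly all of their counts came from 1 library. Tshb and Cga lie between -4.91 and -3.86 in both comparisons with LP-NT, and the torpor panel has 1 filled point, Eya3 at -0.33.

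Nearly all counts of the pars distalis hormone genes Prl and Gh came from 1 library. Prl, the gene of prolactin made by lactotrophs, gave 68 counts in LP-NT replicate 01, 1 count in LP-NT replicate 03 and 0 counts in the other 10 libraries. Gh, the gene of growth hormone made by somatotrophs, gave 37 counts in LP-NT replicate 01, 1 in SP-NT replicate 36, 2 in SP-HT replicate 02 and 0 in the other 9 libraries. In CPM, LP-NT replicate 01 had 3.04 of Prl and 1.65 of Gh, and 0 counts elsewhere allow at most 0.147 CPM. Neither gene passed the test (adjusted p = 0.913 for both in SP-NT against LP-NT, and 0.315 for Prl and 0.368 for Gh in SP-HT against LP-NT, edgeR), and since each group had libraries at 0, neither could be without overlap. The fitted log2(FC) between photoperiods was negative, as for Cga and Tshb, at -7.18 for Prl (95% interval -14.21 to -0.15) and -4.74 for Gh (95% interval -9.29 to -0.20). These values rest on LP-NT replicate 01 and on how the fit treats zeros, so they do not show whether Prl and Gh changed with photoperiod. Per length, the 5.09 CPM per 1000 bases of Prl in LP-NT replicate 01 compared with 71.2 of Cga and 11.7 of Tshb in the same library. Prl was the single GeneID of all 17191 with at least 20 counts in 1 library and at most 1 count in each of the 11 others, a threshold chosen after seeing the data.

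LP-NT replicate 01, a male, was also the highest of the 12 libraries for Cga, Tshb, Lhb and Pomc, the gene of the corticotropin and melanocortin precursor, which both pituitary and arcuate neurons express. For Pomc it had 51.7 CPM, and the other LP-NT hamsters had 24.7 to 30.4 CPM. It was also the highest of the 12 for Sst, listed below with hypothalamic neurons. Its Sst level was 53.2 CPM, and the other LP-NT hamsters had 37.1 to 43.6 CPM. It was not the highest for Pitx1, Pou1f1 or Eya3. For Tshr, and for Cry1, Mct8, Thrb and Trhr2 of the relay list below, it was the lowest of the 12. Its Cga level of 44.9 CPM compared with 21.3 ± 5.28 CPM in the other LP-NT hamsters (SD, n = 3), and its Tshb level of 5.05 CPM with 3.20 ± 1.37 CPM. The remaining LP-NT hamsters, with 0 or 1 count of Prl and 0 of Gh, had 356 to 585 counts of Cga and 36 to 97 of Tshb, still above the most in any SP hamster, 45 and 9. Without LP-NT replicate 01, an alternative used for both comparisons with LP-NT, Cga had a log2(FC) of -4.22 (adjusted p = 0.000209, edgeR) and Tshb of -3.66 (adjusted p = 0.0129, edgeR) in SP-NT against LP-NT. In SP-HT against LP-NT the values were -4.45 for Cga (adjusted p = 0.000775, edgeR) and -4.71 for Tshb (adjusted p = 0.0124, edgeR).

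**Figure D3:**
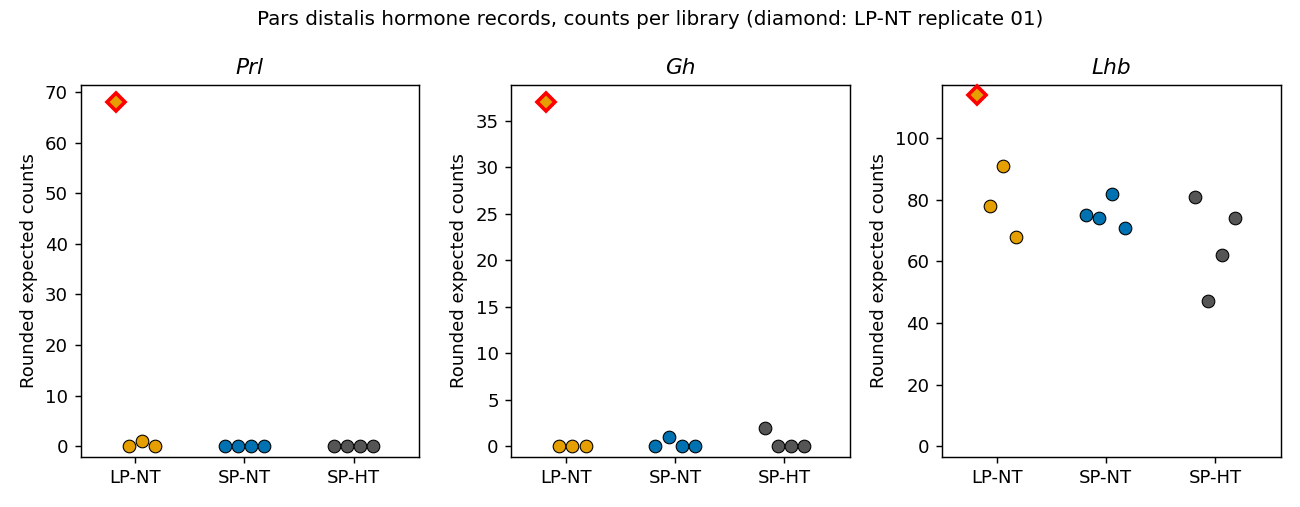
Rounded expected counts (vertical axes, linear, separate scales) of Prl, Gh and the record of Lhb in each of the 12 libraries, with LP-NT replicate 01 as a red-edged diamond. That library holds 68 of all 69 Prl counts and 37 of all 40 Gh counts, and it has the highest Lhb count, 114, while the other libraries of all groups overlap.

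Lhb, the beta subunit gene of luteinizing hormone, is made by gonadotrophs together with Cga. Its record was unusual: it pooled 3 assembled transcripts with an effective length of 2988 to 3744 bases, where the records of Tshb, Cga, Prl and Gh had 431 to 639 bases, and its counts were not whole numbers in any of the 12 libraries, so part of its reads was shared out between records and the counts cannot be firmly assigned to Lhb. The record gave 114, 78, 91 and 68 counts in LP-NT replicates 01, 02, 03 and 05, 71 to 82 in SP-NT and 47 to 81 in SP-HT. These groups overlapped. Its levels were 3.93 ± 0.888 CPM in LP-NT, 3.15 ± 0.289 CPM in SP-NT and 3.09 ± 0.641 CPM in SP-HT (SD, n = 4 each). It passed no test, with a log2(FC) of -0.33 between photoperiods (95% interval -0.73 to 0.07, adjusted p = 0.913, edgeR), -0.02 in torpor (adjusted p = 0.963) and -0.34 in SP-HT against LP-NT (adjusted p = 0.489). Without LP-NT replicate 01, the photoperiodic log2(FC) of Lhb was -0.18.

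Cga and Tshb were also set against the record listed as Lhb, and against Prl and Gh, in the same library, as a log2 ratio per hamster. The Lhb record had 47 to 114 counts in every library, most of which had no Prl or Gh, so a ratio to it is not a ratio to a gene known to be of the pars distalis. The log2 ratio of Cga to Lhb, from CPM plus a pseudocount of 0.1, was 2.68 ± 0.544 in LP-NT and -1.46 ± 0.624 in SP-NT (SD, n = 4 each), a difference of -4.14 (exact permutation p = 0.0286, two-sided). The log2 ratio of Tshb to Lhb was -0.18 ± 0.750 in LP-NT and -3.26 ± 0.475 in SP-NT, a difference of -3.08 (exact permutation p = 0.0286, two-sided). In both ratios all 4 LP-NT hamsters were above all 4 SP-NT hamsters, and without SP-NT replicate 19 the differences were -4.15 for Cga and -3.24 for Tshb. With 4 against 4 hamsters 0.0286 is the smallest p that the 70 splits can give. It became 0.0571 after Benjamini-Hochberg adjustment over the 14 ratios tested, so no ratio passed the correction. The 14 include ratios to Prl and Gh, which enlarge the correction, and an adjustment over the ratios to Lhb alone was not made. The difference in the log2 ratio of Cga to Gh was -3.52, that of Cga to Prl -3.05, that of Tshb to Gh -2.46 and that of Tshb to Prl -1.99. As Prl and Gh were at 0 in most libraries, these last 4 ratios rest largely on the pseudocount. Their p-values thus do not test Cga or Tshb against genes of the pars distalis and are not given. Prl and Gh reached the count filter between photoperiods only through LP-NT replicate 01. In that library the log2 ratio of Cga to Prl was 3.84. The SP-NT range was 3.07 to 4.27, but SP-NT had 0 counts of Prl. That range is therefore Cga over the pseudocount and cannot be compared with the value of LP-NT replicate 01. Between SP-HT and SP-NT the ratio to Lhb differed by -0.34 for Cga (exact permutation p = 0.571) and by -0.93 for Tshb (exact permutation p = 0.171), with overlapping groups.

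Pou1f1, the transcription factor that thyrotrophs, lactotrophs and somatotrophs of the pars distalis need, was near the limit of detection in all groups. It gave 5, 4, 1 and 6 counts in LP-NT replicates 01, 02, 03 and 05, 3 to 9 counts in SP-NT and 3 to 5 counts in SP-HT. The levels of 0.179 ± 0.0981, 0.279 ± 0.106 and 0.187 ± 0.0314 CPM (SD, n = 4 each) overlapped. No comparison passed for Pou1f1 (log2(FC) 0.62 between photoperiods with a 95% interval of -0.49 to 1.74, -0.56 in torpor and 0.07 in SP-HT against LP-NT, adjusted p = 0.913, 0.510 and 0.968, edgeR). Pitx1, a homeobox factor of the pituitary that acts on hormone gene promoters, gave 6, 9, 10 and 5 counts in LP-NT replicates 01, 02, 03 and 05, and 2 to 12 counts in either SP group. Its groups overlapped completely, at 0.336 ± 0.105, 0.321 ± 0.175 and 0.335 ± 0.178 CPM by group in the same order (SD, n = 4 each). No comparison passed for Pitx1 (adjusted p = 0.984, 0.964 and 0.995, edgeR), and its 95% interval between photoperiods, -1.11 to 0.97, spans a change of about 1 log2 unit either way. At this depth such changes of Pou1f1 and Pitx1 were not detectable.

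Tshr, the receptor through which TSH acts on tanycytes, had like levels in all groups. It stood at 4.69, 7.03, 6.41 and 7.13 CPM in LP-NT replicates 01, 02, 03 and 05, at 5.12, 4.80, 5.90 and 7.30 CPM in SP-NT replicates 19, 36, 37 and 38, and at 5.57, 5.15, 5.13 and 5.65 CPM in SP-HT replicates 02, 10, 26 and 33. The SP-HT values lay inside the ranges of both other groups. The log2(FC) of Tshr was -0.14 between photoperiods (SE 0.173, 95% interval -0.52 to 0.25, adjusted p = 0.930, edgeR), -0.10 in torpor (95% interval -0.42 to 0.22, adjusted p = 0.750, edgeR) and -0.23 in SP-HT against LP-NT (95% interval -0.57 to 0.10, adjusted p = 0.524, edgeR). The intervals of Tshr between photoperiods did not reach the size of the change in Cga or Tshb.

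Eya3, a coactivator known to drive Tshb in the pars tuberalis on long days and expressed in many other cells, was lowest in SP-HT in the counts. It gave 697, 686, 720 and 677 counts in LP-NT replicates 01, 02, 03 and 05, and 675, 662, 655 and 754 in SP-NT replicates 19, 36, 37 and 38. In SP-HT replicates 02, 10, 26 and 33 it gave 537, 484, 452 and 464 counts. Every SP-HT hamster was below every hamster of the other groups, and LP-NT and SP-NT overlapped in CPM. The levels were 31.1 ± 1.22 CPM in LP-NT, 28.6 ± 1.38 CPM in SP-NT and 22.7 ± 1.01 CPM in SP-HT (SD, n = 4 each), so the SP-HT mean was 79.6% of the SP-NT mean and 73.0% of the LP-NT mean. The log2(FC) of Eya3 was -0.13 between photoperiods (95% interval -0.28 to 0.01, adjusted p = 0.913, edgeR), -0.33 in torpor (SE 0.0643, 95% interval -0.47 to -0.19, adjusted p = 0.0277, edgeR) and -0.45 in SP-HT against LP-NT (SE 0.0711, 95% interval -0.61 to -0.30, adjusted p = 0.0174, edgeR). Whether the torpor change of Eya3 differed from its photoperiodic change was not tested.

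The torpor call of Eya3 was close to the threshold. It remained in 1 of the 8 fits that left out 1 hamster, the fit without SP-HT replicate 02 (adjusted p = 0.0495, edgeR), and the adjusted p was largest when SP-NT replicate 38 was left out (adjusted p = 0.0905, edgeR, with a log2(FC) of -0.29). In SP-HT against LP-NT, 3 of 8 such fits kept the call. The effective length of the Eya3 record, which pooled 11 assembled transcripts, was 2661 bases in SP-NT replicate 38 and 3255 in SP-NT replicate 19, and 3504 to 4161 in the other 10 libraries. With these lengths as an offset the torpor log2(FC) was -0.49 (adjusted p = 0.124, edgeR) and the photoperiodic log2(FC) turned from -0.13 to 0.13, neither called. Per length the SP-HT hamsters, at 5.85 to 6.48 CPM per 1000 bases, were still below the SP-NT hamsters, at 7.23 to 11.5. Without SP-NT replicate 19 the torpor log2(FC) of Eya3 was -0.34 (adjusted p = 0.0611, edgeR). Whether Eya3 was lower or higher in torpor rests on the group labels. The list of named genes that was matched to the records carried the opposite sign in torpor for every gene matched. Between photoperiods, where the match required the sign, it carried the same sign.

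**Figure D4:**
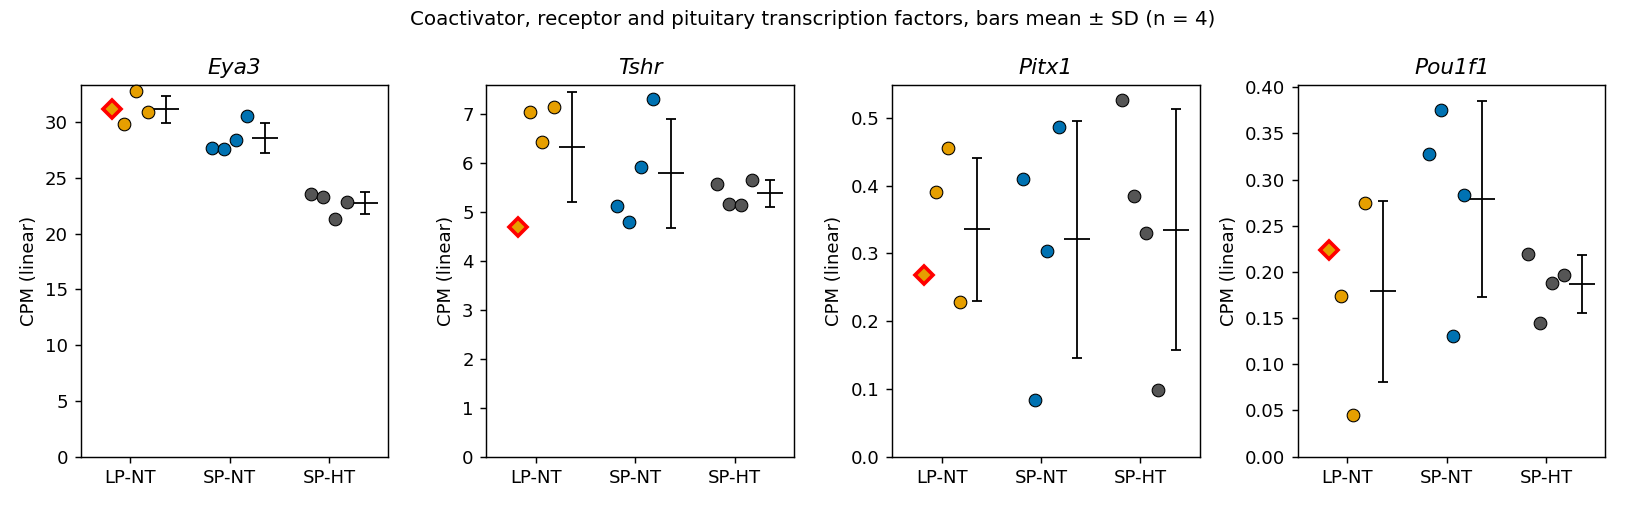
CPM (vertical axes, linear from 0, separate scales) of Eya3, Tshr, Pitx1 and Pou1f1 in each hamster by group, with mean and SD (n = 4) and LP-NT replicate 01 as a red-edged diamond. Eya3 shows the SP-HT points at 21.3 to 23.6 CPM below all others, and the groups overlap for Tshr, Pitx1 and Pou1f1.

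Compared with each other per length, the genes took another order in each photoperiod. In LP-NT, Cga was the most abundant at 43.5 ± 19.9 CPM per 1000 bases, followed by Tshb at 8.44 ± 3.36 and Eya3 at 7.79 ± 0.154, which did not differ beyond their spread (SD, n = 4 each). Tshr at 1.60 ± 0.293 and the Lhb record at 1.17 ± 0.307 came next, Pitx1 and Pou1f1 stood at 0.299 ± 0.0791 and 0.0958 ± 0.0527, and Prl and Gh rested on 1 hamster. In SP-NT, Eya3 led at 8.62 ± 2.00 CPM per 1000 bases, and Cga at 1.82 ± 0.769 was within the spread of Tshr at 1.49 ± 0.252. Tshb, at 0.521 ± 0.230 CPM per 1000 bases in SP-NT, was below Lhb at 0.889 ± 0.101 and within the spread of Pitx1 at 0.345 ± 0.218. In SP-HT, Eya3 stood at 6.16 ± 0.266, Cga at 1.55 ± 1.13, Tshr at 1.42 ± 0.0485, Lhb at 0.939 ± 0.154, Pitx1 at 0.326 ± 0.175, Tshb at 0.241 ± 0.373 and Pou1f1 at 0.10 ± 0.0168 CPM per 1000 bases, and Cga did not differ from Tshr, nor Tshb from Pitx1 or Pou1f1, beyond the spread.

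Of 24 genes listed for the relay from melatonin through TSH to thyroid hormone, names could be paired with records for 10. The others, Dio3, Npvf and Lrat among them, could not be paired with a record by name. Whether any of them is among the GeneIDs given below without a name was not determined. The counts and medians below thus cover these 10 genes and not the relay as a whole. Gpr50, an orphan receptor related to the melatonin receptors, was the 1 gene of these 10 that passed between photoperiods. It stood at 17.4 ± 0.842 CPM in LP-NT, 4.91 ± 0.426 CPM in SP-NT and 5.66 ± 1.77 CPM in SP-HT (SD, n = 4 each) and had a log2(FC) of -1.84 between photoperiods (adjusted p = 4.21e-05, edgeR) and of -1.62 in SP-HT against LP-NT (adjusted p = 0.00768, edgeR). LP-NT replicate 01 did not stand out for Gpr50, at 17.4 CPM where the other LP-NT hamsters had 16.3 to 18.2. None of the 10 genes passed in torpor. Dio2, the deiodinase that activates thyroid hormone and a target of TSH in tanycytes, had 7.12 ± 1.3 CPM in LP-NT, 5.54 ± 0.663 CPM in SP-NT and 5.13 ± 0.680 CPM in SP-HT, with overlapping groups in the photoperiodic comparison (log2(FC) = -0.37, adjusted p = 0.913, edgeR). The thyroid hormone receptor gene Thra, the clock genes Per1 and Cry1 and the thyrotropin-releasing hormone gene Trh, those with the most counts beside Gpr50, had a log2(FC) of 0.01, 0.27, 0.07 and 0.10 between photoperiods (adjusted p = 0.974, 0.913, 0.927 and 0.947, edgeR). The median over the 10 genes was 0.08 between photoperiods, 0.03 in torpor and 0.03 in SP-HT against LP-NT.

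The tissue label was checked against cell type markers. Of 9 genes of hypothalamic neurons, 4 could be paired, and in LP-NT they stood at 231 ± 45.6 CPM (Avp), 47.3 ± 14.2 CPM (Trh), 43.6 ± 6.96 CPM (Sst) and 19.0 ± 1.85 CPM (Npy), with 0 of 4 called in any comparison. Of 6 genes of tanycytes and median eminence, 2 could be paired: Gpr50, above, and Vim, an intermediate filament gene, which passed in SP-HT against LP-NT (log2(FC) = -0.60, adjusted p = 0.0293, edgeR). Of 16 pituitary genes, 5 could be paired (Pou1f1, Lhb, Prl, Gh and Pomc), and 1 of them passed in 1 comparison. That was Pomc, at 33.2 ± 12.6 CPM in LP-NT, 16.2 ± 3.59 CPM in SP-NT and 12.2 ± 1.10 CPM in SP-HT, with a log2(FC) of -1.44 in SP-HT against LP-NT (adjusted p = 0.0128, edgeR), -1.05 between photoperiods (adjusted p = 0.643, edgeR) and -0.40 in torpor (adjusted p = 0.186, edgeR). Of the choroid plexus, meninges and blood lists, 0 of 5, 0 of 4 and 0 of 4 genes could be paired with a name, so the part of these tissues in the results was not tested. The counts of Prl and Gh give no share of pars distalis tissue in a library. Between photoperiods the log2(FC) was -4.58 for Cga and -3.86 for Tshb with LP-NT replicate 01, and -4.22 and -3.66 without it.

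Among 14127 genes with a mean of at least 1 CPM in 1 group, outside the genes described here, the pattern over the 12 hamsters most like that of Cga was that of Gpr50 (Pearson r of log2 CPM 0.96), followed by GeneID 12338 (r = 0.94) and GeneID 60531 (r = 0.92). GeneID 60531 had 28.1 ± 2.22 CPM in LP-NT, 1.74 ± 1.25 CPM in SP-NT and 1.37 ± 0.468 CPM in SP-HT (SD, n = 4 each). For Tshb, the 3 nearest patterns had r of 0.92 to 0.93 and belonged to GeneIDs that no source here pairs with a name, GeneID 12338 among them. These r are descriptions over 12 hamsters in 3 groups.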

How the data were processed

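Polyadenylated RNA was sequenced as directional paired-end libraries. Per the labels and the study's methods, the authors trimmed reads (Trim Galore 0.6.6, FastQC 0.11.9), assembled transcripts de novo, assigned them to mouse genes (GRCm39) by sequence similarity and deposited RSEM 1.3.1 (Bowtie 1.3.0) expected counts and effective lengths per mouse GeneID. Reads shared between records are split by RSEM, and a hamster transcript can be placed with a related mouse gene. Members, lists and tests were chosen with earlier results of these data known.

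Groups came from the labels. Expected counts were rounded. Each comparison used its own 8 samples and the GeneIDs that reached 10 counts in them together, in edgeR 4.0.16 (R 4.3.3) by the quasi-likelihood test after TMM scaling. P-values were adjusted by Benjamini-Hochberg, with 0.05 as threshold. Alternatives used DESeq2 1.42.0, limma 3.58.1, other filters and scalings, effective length offsets, sex, 1 fit over all samples, and each hamster left out. Scripts were tested on simulated data. CPM were scaled by TMM over all 12 libraries, and 1 count was worth about 0.0405 to 0.0492 CPM. Log ratios used a pseudocount of 0.1 CPM and exact permutation tests.

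All genes of the rule were named, with those of the lists that passed or had the most counts, and the 3 genes nearest in pattern to Cga and to Tshb. The files give GeneIDs without names. Names of genes outside the rule were paired by matching DESeq2 values to a list of named genes in the study (59 of 61). The match required the photoperiodic log2(FC) with its sign and the torpor log2(FC) without its sign. For all 59, the photoperiodic sign there was thus that from the labels, and the torpor sign was the reverse. Directions between SP-HT and SP-NT rest on the labels, and the cause of the reversal was not tested. No sequences are shown, since none of the files used here holds them.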

Additional observations from a re-analysis of the deposited data

Results flagged for a closer look

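In 25 groups of 4 hamsters, 1 hamster lay further from the rest than Dixon's 95% critical value in 4 cases. The criterion is met by chance in about 1 in 20 groups of measured values, but that rate does not apply here: where the other hamsters of a group are all at 0 counts, any count above 0 meets it. In LP-NT, replicate 01 stood apart for Prl (3.04 CPM, 68 counts) and for Gh (1.65 CPM, 37 counts), with the other LP-NT hamsters at 0 or 1 count. In SP-NT, replicate 36 stood apart for Gh at 0.0417 CPM, and in SP-HT, replicate 02 at 0.0877 CPM, which are 1 and 2 counts against 0 in the others of each group and so below the 3 counts that a count of 0 allows. Cga, Tshb, Lhb, Pomc and Sst were highest in LP-NT replicate 01 too. The values of Cga, Tshb and Lhb without it stand beside the results above.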

How the results depend on the processing

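Of 455 values of the genes recomputed under an alternative, 436 stayed on the same side of the threshold with no called value changing sign, and 19 lost a call. The 455 include genes not called in the main fit, which had no call to lose. The 19 losses were 3 for Tshb between photoperiods (17 kept), 10 for Eya3 in torpor (10 kept) and 6 for Eya3 in SP-HT against LP-NT (13 kept). Cga passed in both comparisons with LP-NT under every alternative run. For Tshb between photoperiods, the call was lost in limma (-3.59), with sex and without SP-NT replicate 19 (-4.12, chosen after seeing the data), and without SP-NT replicate 36, with a range of -4.11 to -3.66 over the hamsters left out. Eya3 in torpor lost its call with the edgeR effective length offset (-0.49) but not in DESeq2 with effective lengths, and lost it with sex (-0.33), with sex and without SP-NT replicate 19 (-0.35), and in 7 of 8 fits leaving out 1 hamster (-0.34 to -0.29). In SP-HT against LP-NT, Eya3 lost its call with the edgeR length offset, not in DESeq2 with effective lengths, and in 5 of 8 such fits. The causes were not tested. The number of genes called between photoperiods was 6, and 33 in DESeq2 with or without independent filtering and 32 with effective lengths there. In torpor it was 389, and 1017, 979 and 759 in the same DESeq2 settings, 147 with an effective length offset, 242 with sex, 36 with sex and without SP-NT replicate 19, and 104 to 318 without 1 hamster. In SP-HT against LP-NT it was 221, and 706, 672 and 623 in DESeq2, 416 in limma, 103 with the length offset, 612 with all 12 samples in 1 fit, and 55 to 200 without 1 hamster. DESeq2 gave no adjusted p for Prl and Gh. No paired analysis was possible because the groups share 1 replicate number at most, and it names different hamsters. Depth limits Tshb, Pitx1 and Pou1f1, each at a few counts per SP library.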
